A study of Homo sapiens with 3 samples.

Results

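The genes examined here were 10 factors of pluripotency and early development, given by name: SALL4, POU5F1, SOX2, NANOG, KLF4, LIN28A, LIN28B, SALL1, SALL2 and PRDM14. They are 10 of the 19974 protein-coding genes on chromosomes 1 to 22 and X in the RefSeq gene table used. For each gene, peaks were collected over its annotated span and up to 20 kb on either side. The peaks mark acetylation of histone H3 at lysine 27 (H3K27ac), profiled by CUT&Tag, in which an antibody brings a transposase to the mark and the DNA beside it is tagged for sequencing. All cells were A2780, an established line of human ovarian carcinoma. For the BPP library the cells had received a peptide called BPP, described in the series design as a competitor of BIN2 phosphorylation. The CTR library served as control, with H3K27ac profiled in the same way. A TAT peptide is named as comparator for the study's RNA-seq, but what the CTR cells received, the dose and the time are not stated in the labels. The IgG library used a non-specific antibody and gives the background. Which of these cells it came from was not given either.

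Each group was 1 library, so differences could not be set against replicate spread and no p-value is given. The lists held 17841 BPP, 14836 CTR and 7701 IgG peaks. Read depth was unknown, so a place without a peak in one list may fall just short of the caller's threshold. Each peak carries the authors' fold over a background that is not described and the authors' −log10 q, where a larger value means a more certain peak. These values place a peak within its own list, and a difference of values between lists is not read as a change. Of 16 ovarian carcinoma and epithelial marker genes, 9 had a BPP peak within 20 kb and 8 a CTR peak, and 4 and 3 had one within 1 kb of a gene end. These counts are near or below the shares of all coding genes (59.8% and 57.1% in the window, 30.6% and 31.2% at gene ends), so they do not speak for or against the labelled cell type. KRT8, KRT18 and MUC1 had one within 1 kb of a gene end in both lists, whereas PAX8, a factor of the Müllerian lineage, had only a CTR peak in its window and WT1 had none of any list in its window. Of 10 markers of other cell types, VIM alone had a peak within 1 kb of a gene end, in both H3K27ac lists, and VIM is also expressed by many cultured lines.

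Pluripotent cells keep their state through a small circuit of transcription factors. POU5F1 (OCT4) and SOX2 bind DNA together and, with NANOG, activate one another and a shared set of genes. SALL4 is a zinc-finger factor of that circuit, KLF4 is one of the classical reprogramming factors, and PRDM14 guards naive pluripotency and germ cell fate. LIN28A and LIN28B are RNA-binding proteins that block maturation of let-7 microRNAs. SALL1 and SALL2 are relatives of SALL4 that act mainly in kidney and nervous system development. H3K27ac lies at promoters and enhancers that are in use, and most of these genes are silent in most differentiated cells.

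Most of the factors had no H3K27ac peak nearby in either library. In BPP, 3 of 10 had a peak in the 20 kb window (SALL4, POU5F1 and SALL2), and in CTR 2 of 10 did (SALL4 and SALL2). Of all protein-coding genes, 59.8% had such a peak in BPP and 57.1% in CTR. SALL4 and SALL2 had a peak in both lists, as did 50.2% of all coding genes. POU5F1 was the 1 factor with a BPP peak alone (9.57% of all coding genes), and none had a CTR peak alone (6.92%). The IgG list had a peak in the window of SALL1 and of SALL2, 2 of 10, against 24.6% of all coding genes. Over the gene span itself, H3K27ac peaks lay in SALL4 in both lists and in POU5F1 in BPP, and no other factor had one, whereas 40.4% of all coding genes had one in BPP and 38.5% in CTR. The 20 kb window can reach a neighbouring gene, and a longer gene has a wider window.

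SALL4 (chromosome 20, 51782331 to 51802521) was the factor with the most peaks over its span, 2 in BPP, 1 in CTR and 0 in IgG. SALL4 and POU5F1 are both known to be read toward lower coordinates, so the higher-coordinate end is the start of each gene. The gene table itself gives no strand. One place was marked in both libraries. In BPP this peak (chromosome 20, 51800307 to 51800601) reached fold 3.20 with a −log10 q of 6.82, and in CTR (51800307 to 51800761) fold 3.77 with a −log10 q of 8.56. They began at the same base, and their near edges lay 1.92 kb and 1.76 kb inside the higher-coordinate end. The second BPP peak (51801638 to 51801990) lay closer to that end, 531 bp inside it, with fold 3.59 and −log10 q 8.90, and no CTR peak overlapped it. In the remaining window, BPP had a peak at one end of the neighbour ATP9A, a phospholipid flippase gene (51767250 to 51767714; fold 3.82, −log10 q 7.10). Whether that end is the start of ATP9A was not examined. CTR had one between both genes, 5.70 kb below SALL4 (51776310 to 51776634; fold 4.17, −log10 q 5.62). Neither of these outer peaks had a counterpart in the other list.

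Which list SALL4 belonged to therefore turned on the window. Within 1 kb of a gene end it had a BPP peak and no CTR peak, as POU5F1 did and as 7.03% of all coding genes did, but the CTR peak 1.76 kb inside the same end is reached by a window of 2 kb. Counted over the whole gene, SALL4 was marked in both. The peak of highest −log10 q within 50 kb of SALL4 lay inside ATP9A, 31.3 kb from the SALL4 span, and was present in both lists (BPP fold 5.76, −log10 q 27.7; CTR fold 4.60, −log10 q 13.3). The nearest IgG peak lay 52.9 kb from SALL4.

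POU5F1 (chromosome 6, 31164337 to 31170682) had a single BPP peak (31169876 to 31170282) with fold 4.02 and −log10 q 6.38. Its summit lay 597 bp inside the higher-coordinate end, and the other gene end was 5.54 kb away. Neither CTR nor IgG had a peak in the window. The nearest CTR peak was 26981 bp away, in the lncRNA gene HCG27 (31197663 to 31198085; fold 4.07, −log10 q 7.46), and a BPP peak overlapped it (fold 3.94, −log10 q 8.41). The flanking region was thus marked in both lists, and the gene's own peak was listed in BPP alone. The lncRNA gene PSORS1C3, between POU5F1 and HCG27, had no peak in any list, and no peak in the POU5F1 window lay at the adjacent coding genes TCF19 and CCHCR1.

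POU5F1 has pseudogene copies elsewhere in the genome, and reads from a shared stretch cannot be placed with certainty. The gene table named 6 of them. One, POU5F1P4, lies inside ASH1L on chromosome 1 (155433180 to 155434262), and it too had a peak in BPP and none in CTR or IgG. That peak (155433317 to 155433668) reached fold 4.55 with −log10 q 6.43, beside 4.02 and 6.38 at POU5F1. The medians of the whole BPP list were 4.36 and 7.11, so a likeness of these values is not read as a link. Whether the same reads contributed to both BPP peaks was not tested.

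The peaks over SALL4 and POU5F1 fell below the median gene-end peak of their lists. Among all peaks of the BPP list, 58.3% had a higher −log10 q than the POU5F1 peak, and 35.3% and 52.8% had a higher value than the outer and inner SALL4 peaks. In CTR, 38.8% were above the SALL4 peak inside the gene. Peaks within 1 kb of an end of any coding gene numbered 5427 in BPP and 5397 in CTR, with median −log10 q of 9.15 and 9.10. Of those in BPP, 73.4% lay above the POU5F1 peak and 52.2% above the outer SALL4 peak. No peak over either gene reached a fold of 5.

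**Figure D1:**
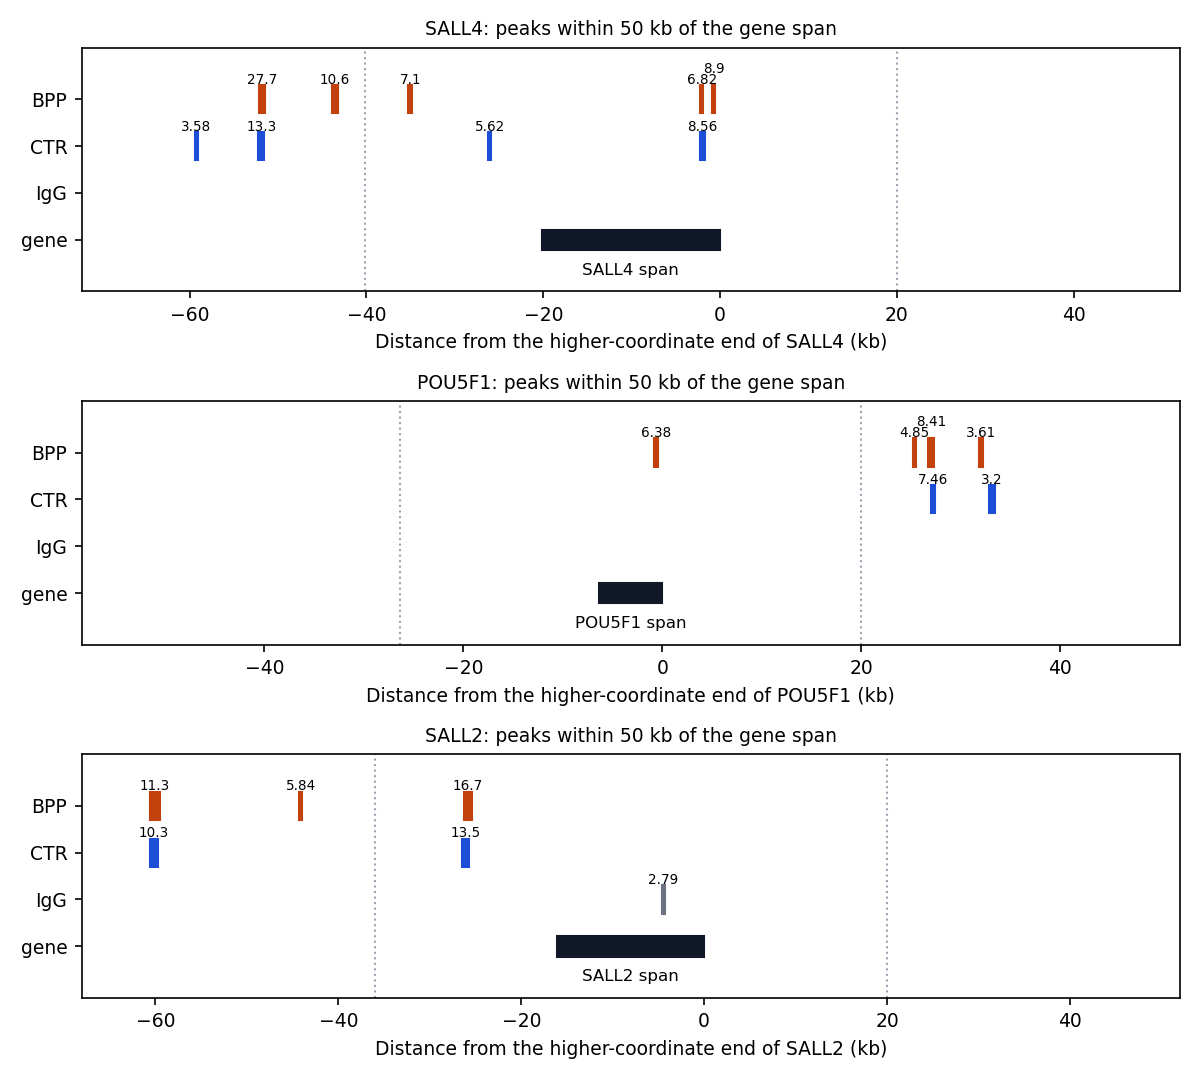
Peaks within 50 kb of SALL4, POU5F1 and SALL2, drawn by distance in kb from the higher-coordinate end of each gene, with 1 row per library, the black bar for the gene span, dotted lines for the 20 kb window and the authors' −log10 q above each peak. SALL4 has a shared peak near the end at 0 and a further BPP peak closer to it, POU5F1 has its BPP peak of 6.38, and the H3K27ac peaks near SALL2 lie outside the gene.

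**Figure D2:**
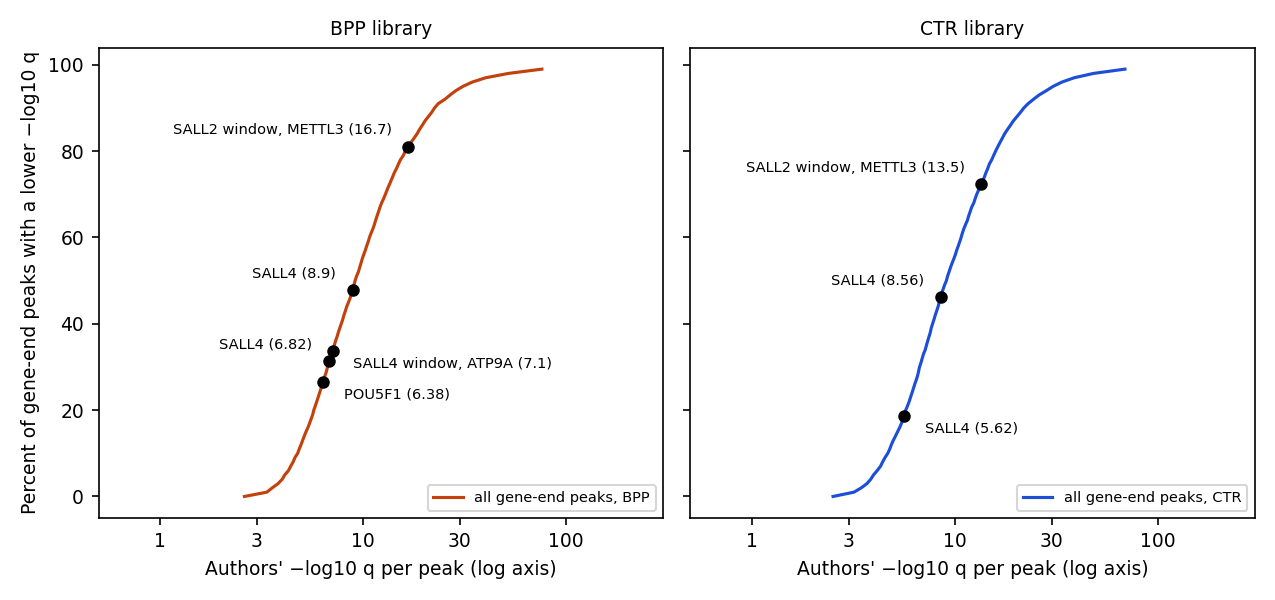
Share of gene-end peaks with a lower −log10 q (vertical axis, percent) against the authors' −log10 q (log axis) in each H3K27ac library, with the peaks in the 20 kb windows as black points placed by their own −log10 q. The POU5F1 peak (6.38) and the SALL4 peaks sit in the lower and middle part, and the points above 13 are the peaks at METTL3 beside SALL2.

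SALL2 (chromosome 14, 21521080 to 21537121) had no H3K27ac peak over its span. It entered the counts through a peak at one end of its neighbour METTL3, which encodes the m6A methyltransferase. Whether that end is the start of METTL3 was not examined. The peak lay 9.36 kb below SALL2 in BPP and 9.64 kb below in CTR. The peak reached fold 6.78 in BPP (21510850 to 21511725; −log10 q 16.7) and fold 6.49 in CTR (21510681 to 21511444; −log10 q 13.5), and both overlapped. An IgG peak lay inside SALL2, 4.27 kb from its start (21532500 to 21532856; fold 4.62, −log10 q 2.79). With the peaks at METTL3 and ATP9A set aside, SALL4 and POU5F1 were the factors with H3K27ac peaks in their windows.

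SALL1 (chromosome 16, 51135982 to 51152334) had an IgG peak 3.33 kb above its span, at the lowest −log10 q of the IgG list (2.20; fold 3.58). Its nearest H3K27ac peaks were 323 kb away in BPP and 556 kb away in CTR. Within 1 Mb, SALL1 had 6 peaks in each H3K27ac list and 8 in IgG.

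SOX2 lay farthest from any H3K27ac peak. Its nearest BPP and CTR peaks were 722.1 kb and 722.2 kb away and overlapped at the same place, an end of DNAJC19, a gene of mitochondrial protein import. Of all coding genes, 95.9% were closer to a BPP peak and 96.0% closer to a CTR peak. SOX2 lies within SOX2-OT, a lncRNA gene of 686 kb, and no list had a peak anywhere over it. NANOG's nearest BPP peak was 136 kb away, at an end of the glucose transporter gene SLC2A3, and its nearest CTR peak was 228 kb away. KLF4's nearest peaks were 177 kb away in BPP and 201 kb away in CTR, both over RAD23B, a DNA repair gene. No H3K27ac peak lay within 100 kb of these 3 factors.

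The promoters of SOX2, NANOG and KLF4 are shown because these core factors had no peak at their start, although their sequences differ widely. Each is the 250 bases before the annotated start, from RefSeq (GRCh38.p14), 5′ to 3′ on the gene's strand. Capitals mark matches on either strand to the motifs searched. A GC box was searched with the letters GGGCGG. The box bound by KLF proteins was searched with the letters CCCACCC. A SOX core was searched as ACAAAG, and an E-box, the site of many helix-loop-helix proteins, as CACGTG. The fifth motif found was the CCAAT box, spelled as its name. SOX2 is at chr3:181711675-181711924 (plus strand), NANOG at chr12:7789152-7789401 (plus strand) and KLF4 at chr9:107489770-107490019 (minus strand).
SOX2: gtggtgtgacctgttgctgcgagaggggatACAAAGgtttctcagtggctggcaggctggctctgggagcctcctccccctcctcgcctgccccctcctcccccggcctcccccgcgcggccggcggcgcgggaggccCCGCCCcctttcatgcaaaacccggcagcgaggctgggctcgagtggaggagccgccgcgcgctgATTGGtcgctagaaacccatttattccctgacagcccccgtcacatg
NANOG: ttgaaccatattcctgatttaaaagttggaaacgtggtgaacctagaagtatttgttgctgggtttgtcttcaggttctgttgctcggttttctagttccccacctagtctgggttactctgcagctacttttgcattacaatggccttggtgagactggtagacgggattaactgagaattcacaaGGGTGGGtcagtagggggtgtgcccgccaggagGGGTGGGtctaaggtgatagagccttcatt
KLF4: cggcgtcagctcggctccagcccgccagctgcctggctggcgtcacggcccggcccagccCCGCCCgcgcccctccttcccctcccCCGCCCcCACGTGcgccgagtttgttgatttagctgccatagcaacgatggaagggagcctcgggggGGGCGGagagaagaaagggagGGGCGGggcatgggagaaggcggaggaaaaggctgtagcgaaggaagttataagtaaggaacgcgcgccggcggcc

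SOX2 held 1 GC box, 1 CCAAT box and 1 SOX core, NANOG 2 KLF boxes, and KLF4 4 GC boxes and 1 E-box. Of 34961 promoters of the same length, 42.7% held a GC box, 18.2% a KLF box, 32.0% a CCAAT box, 13.7% a SOX core and 6.35% an E-box. The octamer bound by POU factors (ATGCAAAT, 1.63% of promoters), a TATA box (TATAAA, 10.7%) and an AP-1 site (TGANTCA, 6.54%) had no exact match in any of the 3. The matches describe letters in the window and do not show binding. Only exact letters were searched, so a site that differs by 1 letter is missed. NANOG holds ttttgcat and SOX2 atgcaaaa, each 1 letter from the octamer on one of the strands. The lack of an exact match therefore does not show that a POU or SOX site is absent.

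CpG-rich promoters were marked more often than others in these lists, and the SOX2 and KLF4 promoters were CpG-rich. GC content was 68.8% in SOX2, 69.2% in KLF4 and 47.6% in NANOG, and the ratio of observed to expected CpG was 0.68, 0.84 and 0.30. Of 12718 coding promoters with at least 50% GC and a ratio of at least 0.6, 40.3% had a BPP peak within 1 kb of the start, 44.0% a CTR peak and 1.67% an IgG peak. Of the 9414 other coding promoters, 15.5% had a BPP peak and 14.1% a CTR peak. LIN28B, with 2 annotated starts in the table, had the most CpG-rich promoter of the factors at its first start (73.6% GC, ratio 1.03), and SALL2 had a ratio of 0.25. None of the 6 promoters of these 5 factors had a peak of any list within 1 kb. Among the CpG-rich coding promoters, 48.8% likewise had neither a BPP nor a CTR peak. Promoters of SALL4, POU5F1, LIN28A, SALL1 and PRDM14 were not analysed here. SALL4 and POU5F1 are the factors with a gene-end peak in BPP. The 6 promoters without a peak therefore do not stand for all the factors.

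**Figure D3:**
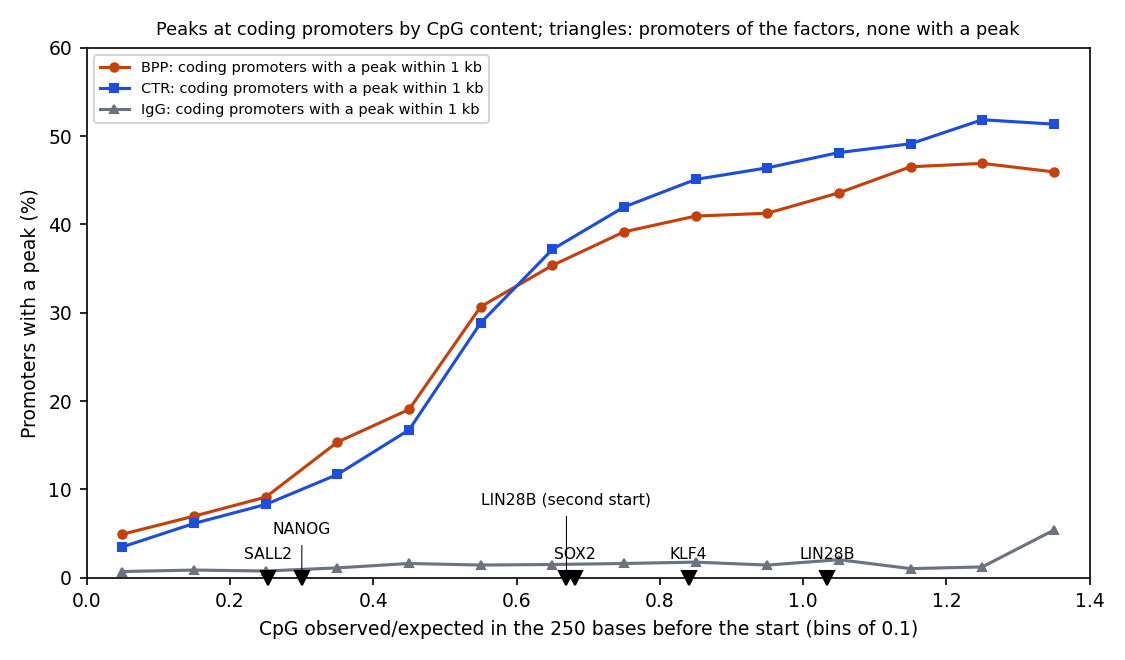
Share of coding promoters with a peak within 1 kb of the start (vertical axis, percent) by the ratio of observed to expected CpG in the 250 bases before the start, in bins of 0.1, with 1 line per library. Triangles on the axis give the ratio of the 6 promoters of SOX2, NANOG, KLF4, LIN28B and SALL2, none of which had a peak. SALL4 and POU5F1, which had a gene-end peak in BPP, are not among the 6 promoters. The BPP and CTR shares rise toward CpG-rich promoters.

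The LIN28 genes had no peak of any list over their span or within 20 kb. LIN28A (chromosome 1, 26410817 to 26429728) had its nearest BPP peak 28.5 kb away, inside DHDDS (fold 4.89, −log10 q 4.76). Its nearest CTR peak was 42.1 kb away, at HMGN2 and an end of DHDDS (fold 5.06, −log10 q 10.9), and a BPP peak overlapped that one. An IgG peak lay nearer than either, at 21.2 kb. LIN28B (chromosome 6, 104937026 to 105083332) spans 146 kb, the longest of the factors, and still had no peak over it. Its nearest peaks, 95.9 kb away in both lists, overlapped at an end of POPDC3 (BPP fold 6.70, −log10 q 15.7; CTR fold 5.89, −log10 q 11.8). PRDM14 had its nearest BPP peak 245 kb away and its nearest CTR peak 100.2 kb away, both over NCOA2, a nuclear receptor coactivator gene.

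The factors lay far from H3K27ac peaks. The median gap from the span to the nearest peak was 116 kb in BPP and 98.0 kb in CTR for the 10 factors, against 5.70 kb and 9.43 kb for all coding genes. To IgG peaks it was 53.3 kb, against 85.5 kb for all coding genes. For the 10 markers of other cell types the median gap was 116 kb to BPP and 115 kb to CTR peaks. For the 16 ovarian carcinoma and epithelial markers it was 15.9 kb and 22.9 kb. A long gap was thus not particular to these factors. More than 50 kb from any BPP peak lay 6 factors, and also 6 for CTR, whereas 30.3% and 31.2% of all coding genes were that far. By the median, the factors also had fewer coding genes around them, 9 others within 1 Mb against 23 for all coding genes. POU5F1 (93), LIN28A (51), NANOG (44) and SALL2 (34) nevertheless lay above 23. The median number of BPP peaks within 1 Mb was 9.5 against 19, of CTR peaks 8.5 against 16 and of IgG peaks 6.5 against 6. The part of gene density in these gaps was not tested.

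The surroundings differed among the factors. SOX2 and KLF4 each had 2 other coding genes within 1 Mb, with 2 peaks around SOX2 in each H3K27ac list and 6 BPP and 3 CTR peaks around KLF4. NANOG had 44 such neighbours, with 24 BPP and 18 CTR peaks, and LIN28A had 51, with 51 BPP and 28 CTR peaks. For these 2 factors peaks were thus plentiful in the region but not at the gene. POU5F1 had the densest surroundings, with 93 coding neighbours, 55 BPP peaks and 41 CTR peaks.

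**Figure D4:**
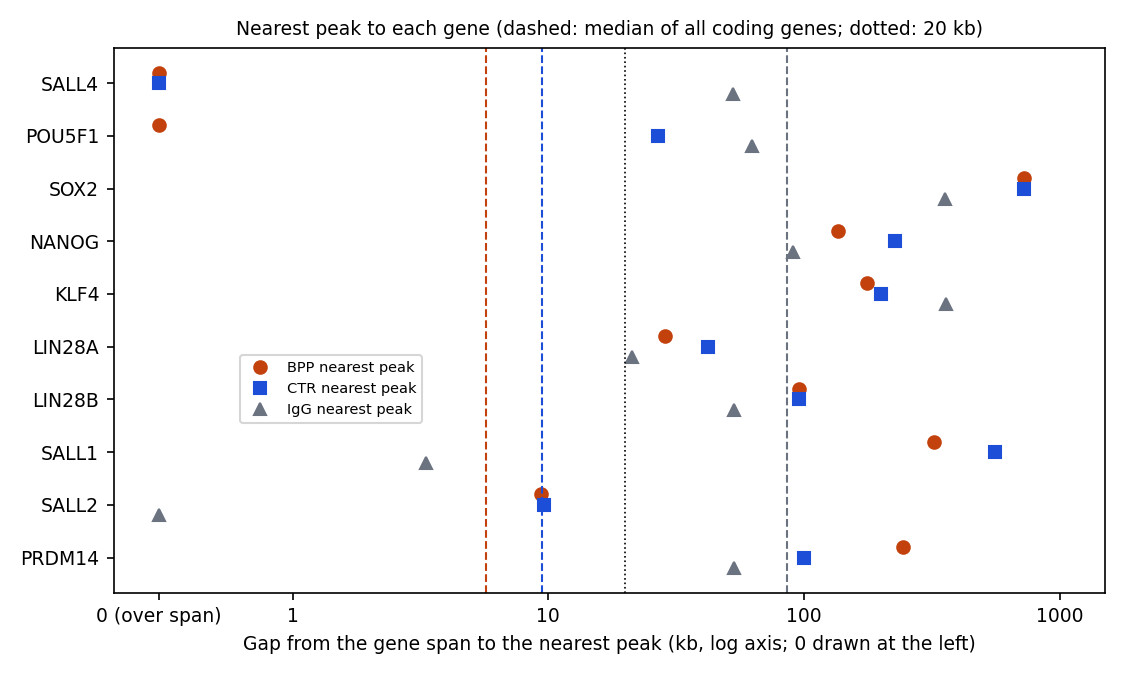
Gap in kb (log axis, with 0 drawn at the left) from each gene span to the nearest peak of each library, with dashed lines for the median of all coding genes in the same color and a dotted line at 20 kb. SALL4 in both H3K27ac lists and POU5F1 in BPP sit at 0, SALL2 sits at 9.36 kb and 9.64 kb, and the other factors lie from 28.5 kb to 722.2 kb from their nearest H3K27ac peak.

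A wider list of 40 other pluripotency and early germ cell genes had 12 members with a peak in the 20 kb window in BPP, 12 in CTR and 9 in IgG, beside 59.8%, 57.1% and 24.6% of all coding genes. Both H3K27ac lists had one at 10 of them (50.2% of all coding genes), with 2 in BPP alone (9.57%) and 2 in CTR alone (6.92%). Within 1 kb of a gene end the counts were 6 in BPP and 8 in CTR, against 30.6% and 31.2% of all coding genes, and 1 in IgG against 2.13%. For the 10 factors they were 2 in BPP, 0 in CTR and 0 in IgG. The wider list had a median gap of 115 kb to BPP and 96.7 kb to CTR peaks, near that of the 10 factors. Of its genes with a gene-end H3K27ac peak, 4 had no IgG peak in the window, and their highest −log10 q was at NANOS3, a germ cell RNA-binding protein. NANOS3 had a shared peak at one end (BPP fold 5.73, −log10 q 17.5; CTR fold 4.01, −log10 q 7.29). Another shared peak lay at its other end (BPP fold 3.27, −log10 q 6.49; CTR fold 5.12, −log10 q 15.2). A further BPP peak at that other end (fold 3.62, −log10 q 8.76) was also within 1 kb of an end of the coding gene BRME1. TRIM28, a co-repressor of KRAB zinc-finger proteins that is expressed widely, had a peak in both lists (BPP fold 5.05, −log10 q 16.6; CTR fold 5.15, −log10 q 13.5). LEFTY1, an inhibitor of NODAL signalling, also had one in both, with folds of 3.75 and 4.15. KLF17, a factor of the early embryo, had one in CTR alone (fold 4.88, −log10 q 4.95).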

How the data were processed

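CUT&Tag peak lists of 3 A2780 libraries were used, grouped by sample title, with 1 library each. Reads had been handled with Bowtie2 2.4.1, deepTools 3.3.0 and fastp on GRCh38.p13 (hg38), per the submitters' processing notes. Which peak caller was used is not given in the sources used here. For each library the authors deposited 1 list, with a score, a fold (ratio), a −log10 p and a −log10 q per peak. No −log10 p was below 5. Depth is unknown, so no interval on a peak was computed.

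Rows outside chromosomes 1 to 22 and X (28 in BPP, 37 in CTR, 14 in IgG) were dropped. Gene spans came from a RefSeq table of GRCh38.p14, whose chromosome coordinates are those of GRCh38.p13. All 10 factors matched by symbol, and CRIPTO was taken for its older name TDGF1. Starts and strands came from a RefSeq promoter table, which held 5 of the 10. Coordinates count from 1, and overlap means at least 1 bp. The members and gene lists were chosen with earlier results of these data known. All 10 members are described, and from the wider list up to 6 genes with a gene-end H3K27ac peak and no IgG peak in the window, of which there were 4. The plan was to print promoters of members with a peak within 1 kb of the start. No member with an entry in the table had one, so the promoters of 3 core factors without a peak are shown, a choice made after the data were seen. The CpG classes and pseudogenes were added after seeing the data. Alternatives changed the window, the peak filter, the removal of peaks over IgG peaks and the overlap rule. Window functions were tested on simulated data. Python 3.11.15, numpy 2.4.6, pandas 2.3.3 and matplotlib 3.10.9 were used.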

Additional observations from a re-analysis of the deposited data

How the results depend on the processing

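Of 49 alternative values, 31 stayed within 1.5 times the reported count. Counts of 0 that stayed 0 are among these. A filter that only removes peaks could not raise the gene-end count of 0 in CTR, so the tally overstates stability. No paired analysis was possible because each group had 1 library. Counts turned on the few peaks at SALL4, POU5F1 and METTL3. With peaks of fold 5 or more, and likewise with the 5000 strongest peaks of each list, the window counts fell to 1 factor in BPP and 1 in CTR (SALL2, through METTL3), 0 factors were marked in BPP only, and 0 had a gene-end peak in BPP. Over the gene span only, and with a window of 5 kb, CTR had 1 factor (SALL4). With a window of 50 kb CTR had 4 and 0 were marked in BPP only, since POU5F1 and LIN28A then had peaks in both lists. A gene-end window of 500 bp left 1 factor in BPP (POU5F1), and one of 2 kb gave 1 in CTR (SALL4). In IgG the count was 0 with −log10 q of 5 or more, 0 with fold 5 or more, 1 with the 5000 strongest peaks and 1 over the span only. Leaving out H3K27ac peaks that overlap IgG peaks changed no window or gene-end count in BPP or CTR. It could not, since no H3K27ac peak in the windows overlapped an IgG peak. Of the 5 BPP peaks in the windows, 2 overlapped a CTR peak, also with 50% of both peaks required, and 3 had one within 1 kb. How strict a filter is in each list is not known, since depth is unknown. Fold 5 kept 5964 BPP, 6012 CTR and 1648 IgG peaks, and −log10 q of 5 kept 13751, 11273 and 337.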

Other observations

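The gene table named 28 pseudogenes of the 10 factors by symbol, 10 of them of NANOG, 7 of SALL4 and 6 of POU5F1, and 2 of the 28 had an H3K27ac peak within 1 kb. Besides POU5F1P4, this was KLF4P1, which lies inside RCL1 on chromosome 9 (4803791 to 4805034). Its BPP peak (4803987 to 4804348; fold 4.66, −log10 q 5.49) and its CTR peak (4804055 to 4804674; fold 4.63, −log10 q 6.25) overlapped each other and the copy. KLF4 itself had no peak of any list within 100 kb. SALL4P7, inside C14orf39, had an IgG peak (fold 4.29, −log10 q 2.75) and no H3K27ac peak. None of the 10 copies of NANOG had a peak in any list within 1 kb. The share of all pseudogenes with such a peak was not computed, so whether these counts are high or low is not known. POU5F1P4 and KLF4P1 both lie inside coding genes.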
